A study of Mus musculus with 15 samples.

Results

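Oligodendrocytes wrap axons in myelin. Expression of 39 genes of this lineage was followed in RNA sequencing of mouse cerebellum, out of 24420 gene symbols in the count table. The 39 were taken from a given list of precursor, maturing and myelinating oligodendrocyte genes and sorted into stages by their known roles. There were 2 precursor genes, 3 lineage transcription factors, 6 genes of maturing cells and 28 genes of myelinating cells. The last comprised 12 genes of myelin structure, 4 of myelin lipid metabolism and 12 others. All 39 were found in the table and all 39 passed the filter on low counts.

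The study compared dissected cerebella of 3 groups, with 5 samples each. The WT samples came from wild type FVB/nJ mice at 9 weeks. The 82Q samples, also FVB/nJ at 9 weeks, carried Atxn1[82Q], an ataxin 1 allele with an expanded glutamine repeat that is used to model spinocerebellar ataxia type 1 and that the design text calls a knockin. The 82Q_M120A samples carried Atxn1[82Q] together with CalphaLoxM120A, an allele of the catalytic alpha subunit of protein kinase A. Their strain is given as Mix:c57Bl/6J:FVB/nJ and their age as 8 weeks. The kinase allele was not studied without Atxn1[82Q], and kinase allele, strain and age cannot be told apart in the comparisons of 82Q_M120A with WT or 82Q. The labels name no promoter, Cre line or cell type for either allele. They call the samples of a group replicates without saying that each is a separate animal, so the spread behind each p-value is that of these samples and may be technical. Libraries are numbered by their place in the table within a group, which carries no order.

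Precursor cells express the growth factor receptor Pdgfra and the proteoglycan Cspg4. They stop dividing, pass through a stage marked by Gpr17, Bcas1 and Enpp6, and then produce the proteins and galactolipids of the sheath under the transcription factors Olig2, Sox10 and Myrf. In the cerebellum myelin lies in the white matter and the granular layer and covers, among others, the axons of Purkinje cells, the neurons most affected in this ataxia.

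Library totals ran from 38322749 counts in WT-5 to 99422994 in 82Q_M120A-1. Levels are CPM, counts divided by the library total and set to a common scale, with TMM, a factor that corrects for a few abundant genes taking up reads, and are given as mean ± SD (n = 5). A gene is said to have risen or fallen where the adjusted p was under 0.05 in edgeR's quasi-likelihood test, with Benjamini-Hochberg adjustment over 16808 tested genes. Log2 fold changes are given ± SE. The 5 Purkinje cell markers all fell in 82Q and in 82Q_M120A against WT. The 5 choroid plexus markers summed to 26.3 to 2571 CPM over the WT libraries, 29.5 to 2763 over the 82Q libraries and 12.1 to 2030.2 over the 82Q_M120A libraries, so that libraries within each group stood apart in this tissue.

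Promoter sequences are shown only for the genes of myelin structure whose upstream window holds the core letters of a SOX site. Each printed window therefore has a match by choice. SOX10 is a known activator of myelin genes. RefSeq windows (GRCm38.p6) were matched for 27 of the 39 genes. No window was matched for Olig1, Sox10, Gpr17, Bcas1, Myrf, Mbp, Fa2h, Trf, Car2, Cryab, Evi2a and Adamts4. The bases are written 5′ to 3′ on the strand of the gene and end before the first annotated exon, with SOX matches (ACAAAG or ACAATG, either strand) and MYRF matches (CTGGCAC, either strand) in capitals.
Mobp chr9:120149492-120149706 plus strand: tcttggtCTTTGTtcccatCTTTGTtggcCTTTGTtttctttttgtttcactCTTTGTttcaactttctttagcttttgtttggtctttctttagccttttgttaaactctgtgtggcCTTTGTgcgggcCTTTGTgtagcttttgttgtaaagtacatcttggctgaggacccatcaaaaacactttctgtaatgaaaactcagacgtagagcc
Mag chr7:30914874-30915113 minus strand: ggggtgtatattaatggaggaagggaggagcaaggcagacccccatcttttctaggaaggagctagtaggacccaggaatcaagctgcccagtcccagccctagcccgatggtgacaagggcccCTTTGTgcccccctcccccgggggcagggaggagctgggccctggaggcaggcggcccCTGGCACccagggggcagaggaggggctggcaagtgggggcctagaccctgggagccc
Cnp chr11:100574689-100574903 plus strand: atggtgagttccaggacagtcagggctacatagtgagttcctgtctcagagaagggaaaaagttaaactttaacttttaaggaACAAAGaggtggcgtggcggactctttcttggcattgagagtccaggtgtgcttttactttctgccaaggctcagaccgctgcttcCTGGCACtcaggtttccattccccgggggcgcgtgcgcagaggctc
Opalin chr19:41077114-41077363 minus strand: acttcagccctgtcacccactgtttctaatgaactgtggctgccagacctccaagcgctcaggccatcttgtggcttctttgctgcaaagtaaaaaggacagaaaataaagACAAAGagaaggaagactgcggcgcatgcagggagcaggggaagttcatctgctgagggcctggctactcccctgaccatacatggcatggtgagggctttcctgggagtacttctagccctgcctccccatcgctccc
Ermn chr2:58052865-58053114 minus strand: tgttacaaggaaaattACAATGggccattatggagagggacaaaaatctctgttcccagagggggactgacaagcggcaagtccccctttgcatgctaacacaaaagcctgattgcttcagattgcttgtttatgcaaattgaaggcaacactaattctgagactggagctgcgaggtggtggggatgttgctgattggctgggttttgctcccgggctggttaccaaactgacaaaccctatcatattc

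The Mobp window holds 6 SOX matches, read as CTTTGT on its strand, from 243 to 120 bases before the RefSeq start. In Mag a SOX match lies 126 bases and a MYRF match 68 bases before the start, and in Cnp they lie at 167 and 81 bases. Opalin has a SOX match at 139 bases and Ermn at 234 bases. Over the 250 bases before the start, 11 of the 27 genes (40.7%) held a SOX match, against 25.5% of 27025 genes with a window. The MYRF letters were in 3 of 27 (Mag, Cnp and Hapln2, 11.1%) against 4.14% of all genes, and the E-box CAGCTG was in 3 of 27 (Aspa, Hapln2 and Ninj2, 11.1%) against 12.8%. Shares of the 27 used the window nearest the annotated gene start, and shares of all genes the first window listed for each symbol. Any effect of this difference was not tested. The motifs were searched separately and matches may overlap. A match is a description of letters and was not tested as a binding site.

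On a scale that allows genes to be compared, CPM per kb of exon, Mbp was the most abundant of the 39 with a mean level of 308 in WT. It encodes myelin basic protein, which holds the inner faces of the membrane together. Car2 (109), Plekhb1 (102), Cnp (99.8) and Trf (88.3) followed. Precursor genes lay near the other end, with Pdgfra at 2.71 and Cspg4 at 0.643 CPM per kb. The lowest level, 0.403 CPM per kb, was that of Tcf7l2, a Wnt pathway factor of maturing cells that some neurons express too. The order of neighbouring genes was not tested.

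**Figure D1:**
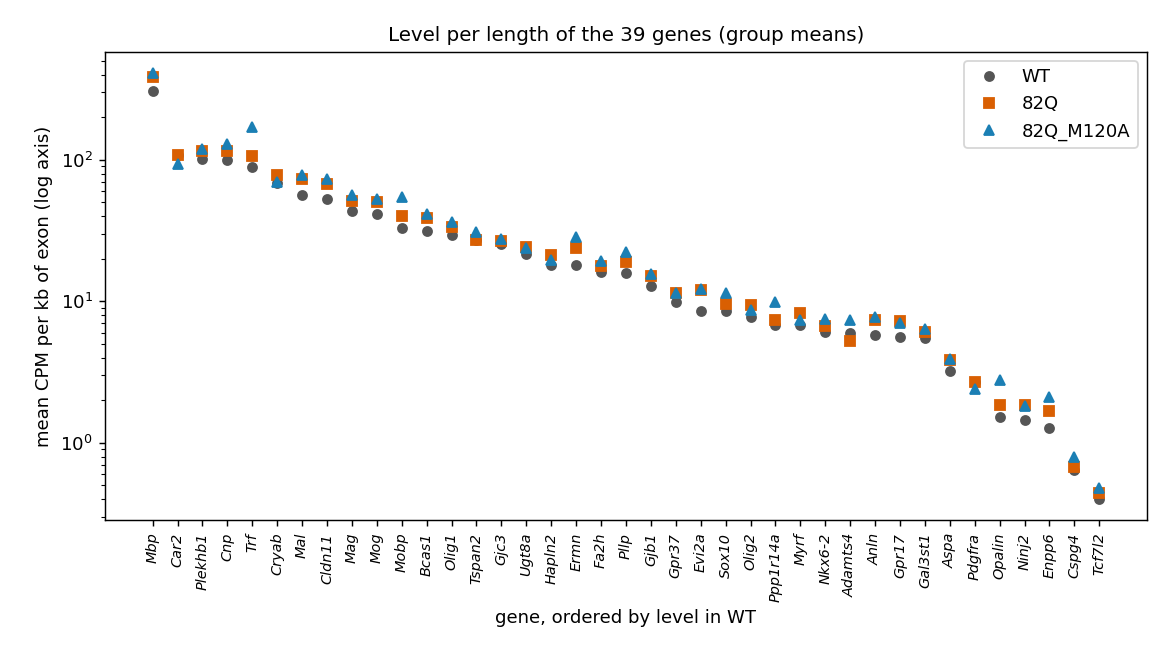
Mean level in CPM per kb of exon (vertical, log axis) of the 39 genes, ordered by their WT level, with a symbol for each of the 3 groups. Mbp is highest at 308 in WT and Tcf7l2 lowest at 0.403, and the precursor genes Pdgfra and Cspg4 lie among the 6 lowest.

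More of the 39 genes rose than fell in each comparison. In 82Q against WT, 18 rose, 1 fell and 20 did not pass the test, beside 18.7% of all tested genes called in either direction, 8.63% higher and 10.1% lower. The median log2 fold change of the 39 was 0.24, beside 0.01 over all tested genes. In 82Q_M120A against WT, 28 rose, 1 fell and 10 did not pass, with a median of 0.32. Of all tested genes 36.4% were called there, 18.6% higher and 17.8% lower. In 82Q_M120A against 82Q, 11 rose, 1 fell and 27 did not pass, with a median of 0.09, beside 18.9% of all genes called, 10.3% higher and 8.63% lower. Each pair of these comparisons shares a group, so they do not count as independent. In whole tissue, fewer or more cells of a type and less or more RNA per cell cannot be told apart.

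The libraries of 82Q and WT did not overlap for 9 genes that were higher and 1 that was lower in 82Q, beside 6.81% and 9.79% of all genes. Between 82Q_M120A and WT, 23 genes were higher and 1 lower without overlap, beside 12.4% and 12.9%. Between 82Q_M120A and 82Q, 10 were higher and 1 lower, beside 6.63% and 5.50%.

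Genes fell into a few patterns of calls. The largest set of 12 genes rose in both mutant groups against WT without a call between them (Gpr17, Bcas1, Mbp, Mog, Mal, Cldn11, Pllp, Plekhb1, Aspa, Gjb1, Anln and Evi2a). A set of 4 rose in all 3 comparisons (Enpp6, Mobp, Cnp and Ermn). A further 6 rose in 82Q_M120A against each of the other groups and were not called in 82Q (Cspg4, Sox10, Opalin, Tspan2, Trf and Ppp1r14a). Against these stood 8 genes with no call in the main fit (Pdgfra, Tcf7l2, Ugt8a, Gal3st1, Gjc3, Cryab, Hapln2 and Ninj2). Some of them were called under other settings, as given in the last section. The group means ascended from WT over 82Q to 82Q_M120A in 28 genes and were highest in 82Q and lowest in WT in 7. The background shares given above are for single comparisons, not for these patterns or orders. Whether the patterns or orders were more frequent here than among all tested genes was not tested.

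Levels of the 39 genes also differed among libraries of the same group. They took 0.525% (WT-1) to 0.625% (WT-5) of all counts in WT, 0.633% to 0.776% in 82Q and 0.748% to 0.811% in 82Q_M120A. WT-4 was the lowest WT library for 21 genes and WT-1 for 17, while WT-2 was the highest for 21 and WT-5 for 15. In 82Q, library 82Q-3 was lowest for 23 genes and 82Q-4 for 14, and 82Q-1 was highest for 15 and 82Q-5 for 11. In 82Q_M120A the lowest values were spread over all libraries, with 3 (82Q_M120A-4) to 13 genes (82Q_M120A-2) each, and 82Q_M120A-4 was highest for 17. Whether the genes varied together was not tested. The median coefficient of variation within a group was 9.60% over the 39 genes in WT, 9.34% in 82Q and 6.58% in 82Q_M120A. Over all genes at 1 CPM or more it was 4.47%, 5.45% and 5.7%.

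**Figure D2:**
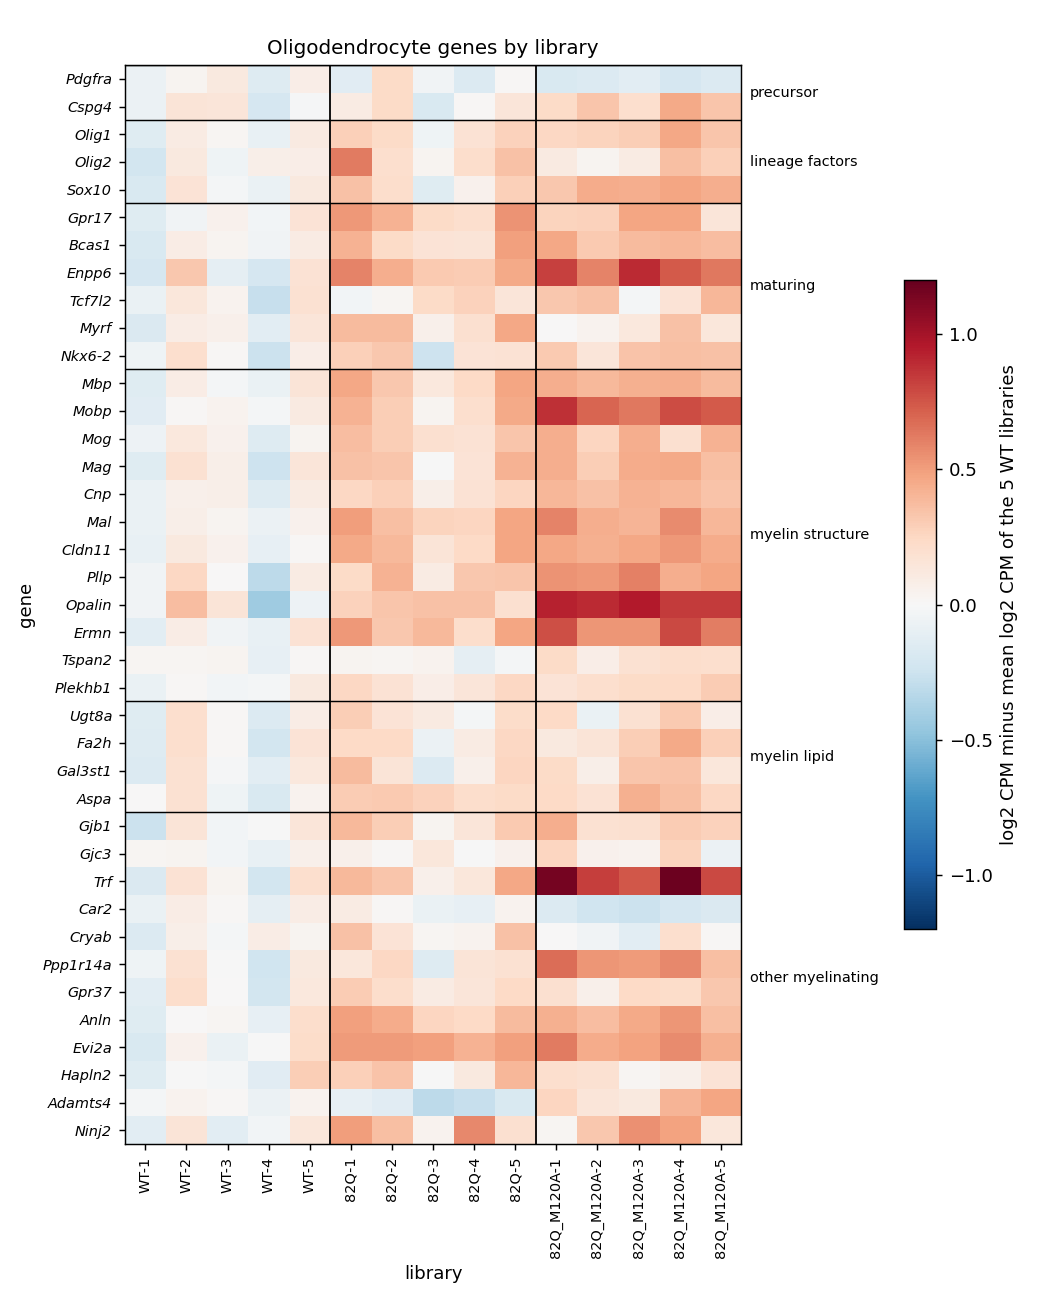
Colour shows log2 CPM of each gene (rows, grouped by stage) in each of the 15 libraries (columns) minus the mean log2 CPM of the 5 WT libraries, red for higher and blue for lower. Trf, Opalin, Mobp and Enpp6 are the deepest red rows in the 82Q_M120A columns, while Pdgfra and Car2 are blue there.

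Neither precursor gene was called in 82Q, and in 82Q_M120A Cspg4 rose while Pdgfra did not. Pdgfra stood at 25.7, 27.8, 29.3, 24.3 and 28.7 CPM in WT libraries, at 24.6, 31.7, 26.3, 24.2 and 27.3 CPM in 82Q libraries and at 23.9, 24.2, 24.8, 23.6 and 24.2 CPM in 82Q_M120A libraries. Pdgfra (chr5:75152292-75198215, mm10) encodes the receptor for the growth factor that keeps precursors dividing. Its 3 groups overlapped, with the 82Q_M120A libraries close together at the low end. The log2 fold change was -0.02 ± 0.07 in 82Q (adjusted p = 0.903) and -0.17 ± 0.07 in 82Q_M120A against WT (adjusted p = 0.0523, edgeR). The WT libraries held 7.25, 8.49, 8.42, 6.63 and 7.54 CPM of Cspg4, the 82Q libraries 8.15, 8.96, 6.73, 7.69 and 8.43, and the 82Q_M120A libraries 8.97, 9.61, 8.80, 10.4 and 9.60. Cspg4 (chr9:56865033-56899870) encodes the proteoglycan NG2, which pericytes carry too. Every 82Q_M120A library lay above every WT library, a rise of 1.24-fold (0.31 ± 0.08, adjusted p = 0.00738, edgeR). That rise was not called with the brainstem covariate described below (adjusted p = 0.0604). The rise against 82Q (0.25 ± 0.08, adjusted p = 0.0429) lost its call without any of 7 libraries (82Q-1, 82Q-3, 82Q-4, 82Q-5, 82Q_M120A-2, 82Q_M120A-4 or 82Q_M120A-5).

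Of the 3 lineage factors, Olig1 and Sox10 rose in 82Q_M120A and Olig2 rose in 82Q. Per library, Olig1 had 57.2, 67.4, 64.3, 59.5 and 68.0 CPM (WT), 76.9, 74.1, 60.8, 71.2 and 76.5 CPM (82Q) and 74.8, 76.1, 77.2, 86.9 and 79.3 CPM (82Q_M120A). The 82Q_M120A libraries of Olig1 (chr16:91269772-91271933) lay above all WT libraries, and only 82Q-3 of the 82Q libraries fell within the WT range. Olig1, a helix-loop-helix factor of the whole lineage, rose 1.25-fold in 82Q_M120A against WT (0.32 ± 0.06, adjusted p = 0.000925) and missed the threshold in 82Q (0.19 ± 0.06, adjusted p = 0.0545, edgeR).

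Sox10 stood at 22.9, 29.1, 25.6, 24.7 and 28.2 CPM in WT libraries, at 33.3, 30.0, 23.5, 26.9 and 31.6 CPM in 82Q libraries and at 32.5, 35.5, 35.2, 36.1 and 35.2 CPM in 82Q_M120A libraries. Sox10 (chr15:79154908-79165240) encodes the factor that activates myelin genes together with MYRF. The WT and 82Q libraries overlapped, and all 82Q_M120A libraries lay above WT. Sox10 rose 1.34-fold against WT (0.42 ± 0.08, adjusted p = 0.000744) and 1.2-fold against 82Q (0.26 ± 0.08, adjusted p = 0.0325, edgeR). The second call was lost without 82Q-3, 82Q-4 or any of 82Q_M120A-2 to 82Q_M120A-5, and with the choroid plexus markers as a covariate (adjusted p = 0.0525). The WT libraries held 16.7, 21.1, 18.7, 20.4 and 20.6 CPM of Olig2, the 82Q libraries 30.0, 22.3, 19.8, 22.5 and 24.9, and the 82Q_M120A libraries 21.0, 19.9, 20.8, 24.9 and 23.6. Olig2 (chr16:91225457-91228677), which commits cells to the lineage, was highest in 82Q-1, and the groups overlapped. Its rise in 82Q (0.29 ± 0.10, adjusted p = 0.0484, edgeR) lost its call without any library of these groups other than 82Q-3 and WT-2, and with the brainstem covariate (adjusted p = 0.11).

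Maturing cells gave 4 rises among 6 genes in 82Q and 4 in 82Q_M120A against WT, beside 8.63% and 18.6% of all tested genes. Gpr17 stood at 26.2, 28.2, 30.2, 28.4 and 32.5 CPM in WT libraries, at 41.6, 38.7, 34.0, 33.4 and 42.3 CPM in 82Q libraries and at 34.8, 35.3, 40.3, 40.2 and 32.2 CPM in 82Q_M120A libraries. Gpr17 (chr18:31942997-31949636) is a receptor present for a short time before myelination. Every 82Q library lay above every WT library, and 82Q_M120A-5 lay within the WT range. The rise was 1.31-fold in 82Q (0.39 ± 0.08, adjusted p = 0.00242) and 1.26-fold in 82Q_M120A (0.33 ± 0.08, adjusted p = 0.00382, edgeR). Per library, Bcas1 had 105, 126, 122, 115 and 127 CPM (WT), 159, 139, 133, 132 and 167 CPM (82Q) and 164, 147, 155, 157 and 153 CPM (82Q_M120A). The WT libraries of Bcas1 (chr2:170346991-170427845), which marks cells that begin to myelinate, lay below all others. Bcas1 rose 1.23-fold in 82Q (0.30 ± 0.07, adjusted p = 0.0047) and 1.3-fold in 82Q_M120A (0.38 ± 0.07, adjusted p = 0.000275, edgeR).

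Enpp6 stood at 7.05, 10.1, 7.51, 7.03 and 9.14 CPM in WT libraries, at 12.2, 10.9, 10.02, 9.97 and 11.1 CPM in 82Q libraries and at 14.3, 12.2, 15.1, 13.5 and 12.5 CPM in 82Q_M120A libraries. Enpp6 (chr8:46986887-47096762) encodes a choline phosphodiesterase of newly formed oligodendrocytes. Its WT and 82Q libraries overlapped slightly, and the 82Q_M120A libraries lay above WT and at or above the highest 82Q library. Enpp6 rose 1.33-fold in 82Q (0.41 ± 0.10, adjusted p = 0.00663) and 1.66-fold in 82Q_M120A against WT (0.73 ± 0.10, adjusted p = 1.69e-05, edgeR). The rise of 0.32 ± 0.10 against 82Q (adjusted p = 0.0294) lost its call without 82Q-3, 82Q-4, 82Q_M120A-1 or 82Q_M120A-3, and the rise in 82Q lost it with the brainstem covariate (adjusted p = 0.07).

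Myrf, the factor that starts the myelin programme, rose from 58.0 ± 5.67 CPM in WT to 71.4 ± 7.95 CPM in 82Q (0.30 ± 0.09, adjusted p = 0.0228, edgeR). That call was lost without 82Q-1, 82Q-2, 82Q-5, WT-1 or WT-4, and with the brainstem covariate (adjusted p = 0.0927). At 63.6 ± 6.22 CPM in 82Q_M120A it was not called against WT (adjusted p = 0.241) or 82Q (adjusted p = 0.199). Nkx6-2, a homeobox factor of myelinating cells, rose in 82Q_M120A against WT (0.30 ± 0.10, adjusted p = 0.0219), a call lost without WT-1 or WT-4 and with the brainstem covariate (0.23, adjusted p = 0.123). Its exons share 246 bases with Inpp5a on the other strand, whose mean level went from 442 CPM (WT) to 204 (82Q) and 225 (82Q_M120A). The sources used here do not give the strand setting, so reads from the shared bases cannot be told apart. Tcf7l2 had 3.53 ± 0.437 CPM in WT and was not called (adjusted p = 0.415 in 82Q and 0.065 in 82Q_M120A against WT).

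Of the genes of myelin structure, 9 of 12 rose in 82Q and 12 of 12 in 82Q_M120A against WT, with medians of 0.28 and 0.44 on the log2 scale. Of all tested genes 8.63% and 18.6% rose in these comparisons. The stages hold few genes each, and differences between stages were not tested. Mbp stood at 2348, 2769, 2567, 2457 and 2904 CPM in WT libraries, at 3586, 3246, 2846, 3076 and 3607 CPM in 82Q libraries and at 3518, 3413, 3488, 3527 and 3374 CPM in 82Q_M120A libraries. Only 82Q-3 among the 82Q libraries of Mbp (chr18:82475146-82585637) fell within the WT range, and the 82Q_M120A libraries formed a narrow band above WT. Mbp rose 1.25-fold in 82Q (0.33 ± 0.06, adjusted p = 0.00135) and 1.33-fold in 82Q_M120A (0.41 ± 0.06, adjusted p = 8.13e-05, edgeR). Between the mutant groups it differed by 0.08 ± 0.06 (adjusted p = 0.412). The WT libraries held 148, 163, 159, 148 and 162 CPM of Mal, the 82Q libraries 221, 199.8, 188, 186 and 217, and the 82Q_M120A libraries 235, 211, 206, 231 and 205. Mal (chr2:127633226-127656695) encodes a membrane protein that sorts cargo to the sheath. All its WT libraries lay below all others, a rise of 1.3-fold in 82Q (0.37 ± 0.05, adjusted p = 6.45e-05) and of 1.4-fold in 82Q_M120A (0.48 ± 0.05, adjusted p = 2.05e-06, edgeR).

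In 6 of the 12 genes of myelin structure all 82Q_M120A libraries lay above all 82Q libraries, beside 6.63% of all tested genes. These were Mobp, Opalin, Cnp, Pllp, Ermn and Tspan2, of which Pllp was not called against 82Q (adjusted p = 0.0557, edgeR). All 12 lay above WT without overlap, beside 12.4% of all tested genes. Per library, Mobp had 204, 227, 230.2, 220.5 and 241 CPM (WT), 299, 274, 229.8, 257 and 306 CPM (82Q) and 410.1, 364, 346, 384 and 373 CPM (82Q_M120A). All 82Q_M120A libraries of Mobp (chr9:120149707-120181484), a small basic protein of compact myelin, lay above the 10 others, and 82Q-3 lay within the WT range. Mobp rose 1.22-fold in 82Q (0.29 ± 0.07, adjusted p = 0.00744), 1.67-fold in 82Q_M120A against WT (0.74 ± 0.07, adjusted p = 2.83e-07) and 1.37-fold against 82Q (0.46 ± 0.07, adjusted p = 0.000182, edgeR). Opalin stood at 4.30, 5.72, 4.92, 3.29 and 4.22 CPM in WT libraries, at 5.34, 5.58, 5.63, 5.65 and 5.06 CPM in 82Q libraries and at 8.36, 8.20, 8.52, 7.92 and 7.89 CPM in 82Q_M120A libraries. Opalin (chr19:41061710-41077113), a sialylated membrane protein of central myelin, was chosen for print after its values were seen. Its 82Q_M120A libraries again lay above all others, 1.82-fold above WT (0.86 ± 0.10, adjusted p = 3.3e-06) and 1.5-fold above 82Q (0.58 ± 0.10, adjusted p = 0.000513, edgeR). In 82Q it was not called (0.28 ± 0.10, adjusted p = 0.0692).

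Of the other structure genes, Cldn11, the tight junction protein of the sheath, rose from 99.4 ± 6.50 CPM in WT to 126 ± 11.9 in 82Q and 137 ± 3.56 in 82Q_M120A. Ermn, a cytoskeletal protein of late oligodendrocytes, rose from 66.0 ± 5.83 to 86.04 ± 7.22 and 103 ± 9.16 CPM. Cnp, a phosphodiesterase of the cytoplasmic channels, rose from 363 ± 26.8 to 419 ± 24.4 and 472 ± 10.5 CPM, with the 82Q call lost under the brainstem covariate (0.16, adjusted p = 0.0749). Ermn and Cnp were also called between the mutant groups (adjusted p = 0.0151 and 0.0213, edgeR), whereas Cldn11 was not (adjusted p = 0.164). Mog, on the outermost membrane, rose by 0.27 in 82Q and 0.35 in 82Q_M120A on the log2 scale. Pllp rose by 0.27 (adjusted p = 0.185 with the brainstem covariate) and 0.51, and Plekhb1 by 0.18 and 0.23. Mag, the adhesion protein of the membrane next to the axon, rose in 82Q_M120A (0.39 ± 0.09, adjusted p = 0.00252) and missed the threshold in 82Q (0.25 ± 0.09, adjusted p = 0.0592). The tetraspanin Tspan2 had 129 ± 4.80 CPM in WT, and the level was 128 ± 5.43 in 82Q (adjusted p = 0.95) and 146 ± 5.93 in 82Q_M120A (adjusted p = 0.000746, edgeR).

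**Figure D3:**
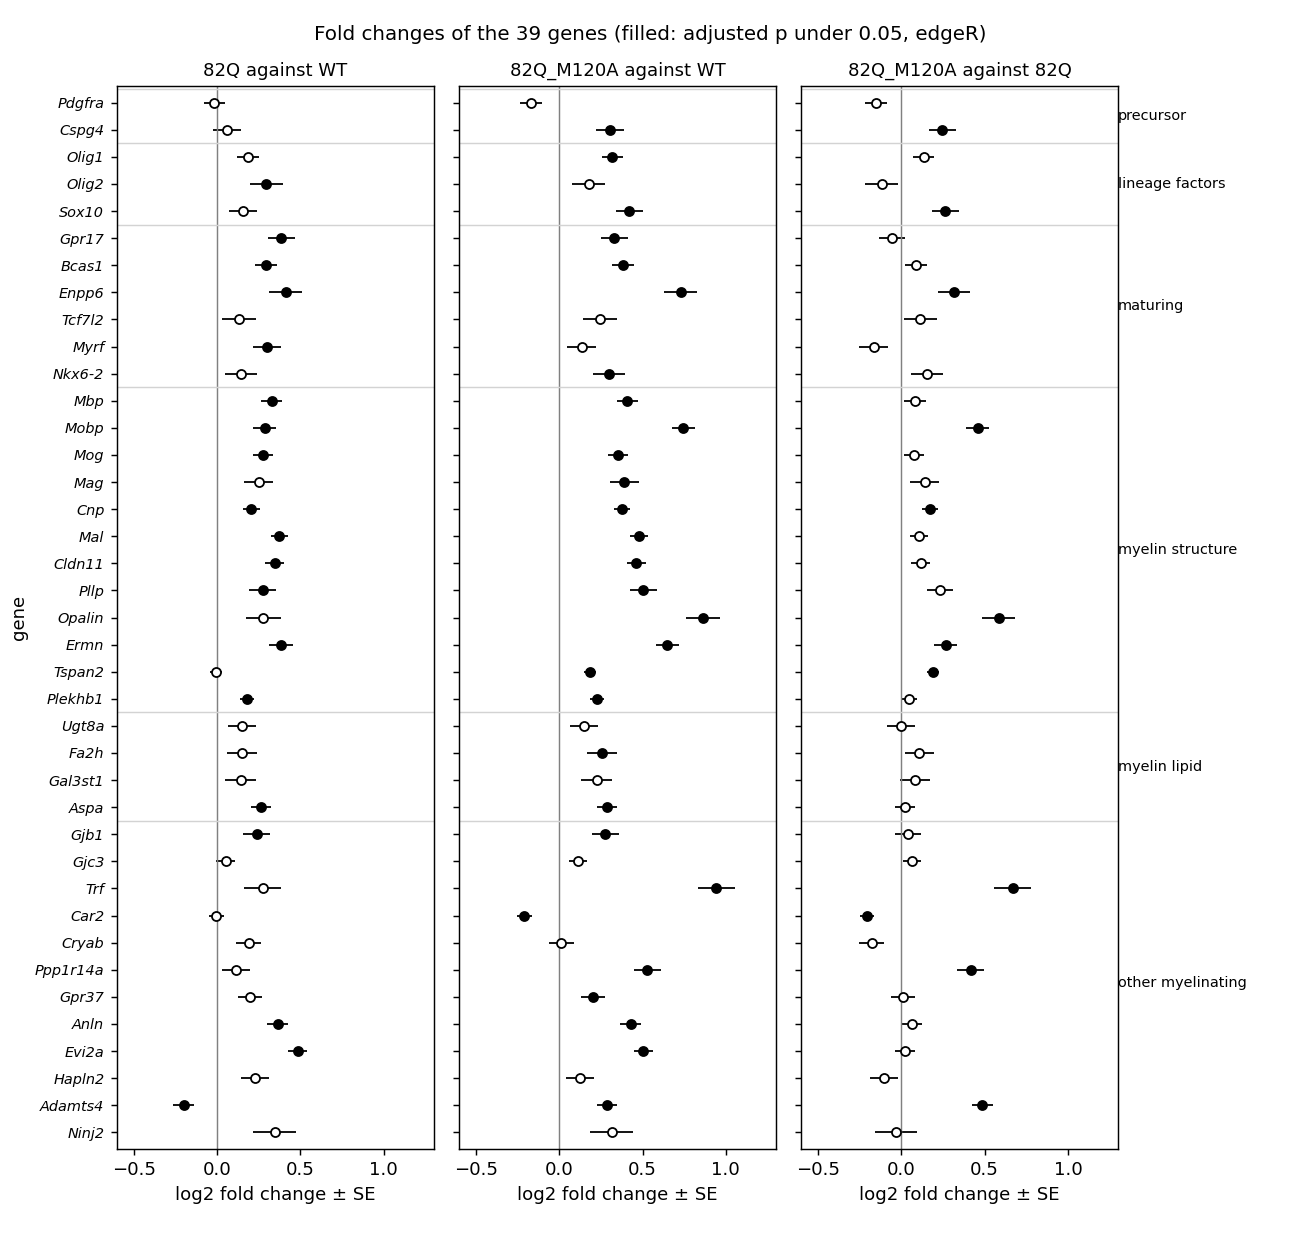
Log2 fold change ± SE (horizontal) of the 39 genes (vertical, by stage) in a panel for each of the 3 comparisons, with filled points where the adjusted p was under 0.05 (edgeR). All 12 genes of myelin structure are filled in 82Q_M120A against WT, 9 in 82Q against WT and 5 in 82Q_M120A against 82Q.

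Of the 4 lipid genes 1 rose in 82Q and 2 in 82Q_M120A against WT, beside 8.63% and 18.6% of all tested genes. Ugt8a stood at 88.6, 113, 99.1, 87.3 and 104 CPM in WT libraries, at 120.3, 109, 105, 96.7 and 115 CPM in 82Q libraries and at 116, 92.7, 111, 122 and 104 CPM in 82Q_M120A libraries. Ugt8a (chr3:125865271-125938619) makes galactosylceramide, a main lipid of myelin. The groups overlapped, with 0.15 ± 0.08 in 82Q (adjusted p = 0.237) and 0.15 ± 0.08 in 82Q_M120A (adjusted p = 0.179, edgeR). Per library, Aspa had 19.2, 21.8, 18.5, 16.9 and 19.8 CPM (WT), 23.7, 23.8, 23.2, 22.2 and 22.5 CPM (82Q) and 22.6, 21.6, 25.8, 24.6 and 22.8 CPM (82Q_M120A). Aspa (chr11:73304992-73329596) splits N-acetylaspartate and so yields acetate for lipid synthesis. All 82Q libraries lay above all WT libraries, a rise of 1.2-fold (0.26 ± 0.06, adjusted p = 0.00452) that was not called with the brainstem covariate (adjusted p = 0.055). In 82Q_M120A the rise was 1.22-fold (adjusted p = 0.00111, edgeR). Fa2h stood at 43.5, 55.4, 48.8, 41.6 and 54.1 CPM in WT libraries, at 57.2, 57.2, 45.9, 51.9 and 57.4 CPM in 82Q libraries and at 52.4, 53.9, 59.3, 66.3 and 58.8 CPM in 82Q_M120A libraries. Fa2h (chr8:111345135-111393824), which hydroxylates the fatty acids of myelin lipids, overlapped between all groups. Its rise in 82Q_M120A against WT (0.26 ± 0.09, adjusted p = 0.0322) lost its call without 82Q_M120A-3, 82Q_M120A-4, 82Q_M120A-5, WT-1, WT-3 or WT-4, and with the brainstem covariate (adjusted p = 0.129). Gal3st1, which sulfates galactosylceramide, was not called (0.14 ± 0.09 and 0.22 ± 0.09 against WT).

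The other 12 myelinating genes gave 3 rises and 1 fall in 82Q, and 7 rises and 1 fall in 82Q_M120A against WT. Among all tested genes 8.63% rose and 10.1% fell in 82Q, and 18.6% rose and 17.8% fell in 82Q_M120A. Evi2a stood at 17.4, 20.3, 18.6, 19.6 and 22.9 CPM in WT libraries, at 28.0, 28.0, 27.8, 26.3 and 27.7 CPM in 82Q libraries and at 30.3, 26.8, 27.4, 29.1 and 26.4 CPM in 82Q_M120A libraries. Evi2a (chr11:79526560-79530609) is a small gene within an intron of Nf1 that encodes a membrane protein. All WT libraries lay below all others, and the mutant groups overlapped. It rose 1.4-fold in 82Q (0.48 ± 0.06, adjusted p = 9.59e-06), where it was the only one of the 39 called against a 1.2-fold change, and 1.42-fold in 82Q_M120A (0.51 ± 0.06, adjusted p = 2.97e-06, edgeR). Evi2a shares 19.2% of its exon bases with Evi2. Anln, an actin-binding protein that helps to place septins in myelin, rose from 52.1 ± 5.12 CPM to 67.0 ± 5.23 in 82Q and 70.0 ± 3.29 in 82Q_M120A.

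Per library, Trf had 258, 328, 297, 249 and 334 CPM (WT), 381, 366, 304, 319 and 402 CPM (82Q) and 647, 517, 489, 658 and 505 CPM (82Q_M120A). Trf (chr9:103204001-103230444) encodes transferrin, the iron carrier, which oligodendrocytes and choroid plexus make. All 82Q_M120A libraries lay above the 10 others, with 82Q_M120A-1 and 82Q_M120A-4 highest. The rise was 1.92-fold against WT (0.94 ± 0.11, adjusted p = 9.05e-06) and 1.59-fold against 82Q (0.67 ± 0.11, adjusted p = 0.000626, edgeR). Summed choroid plexus markers had a median of 21.4 CPM in 82Q_M120A and 2223 CPM in WT. The libraries overlapped (12.1 to 2030.2 and 26.3 to 2571 CPM), and none of the 5 markers was called. With the choroid plexus markers as a covariate the log2 fold change of Trf against WT was 1.10 (adjusted p = 2.21e-06, edgeR). Trf was called in 82Q as well with that covariate (0.34, adjusted p = 0.0205), and not without it (adjusted p = 0.104). Trf shares 63.5% of its exon bases with the annotated locus Gm20425, and Pllp 54.2% with Gm45767, and neither locus has a row in the table analysed. Any effect of the shared bases on the counts was not tested.

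Adamts4 and Car2 were the 2 of the 39 genes that fell in any comparison. Adamts4 stood at 28.5, 29.8, 29.2, 27.6 and 29.8 CPM in WT libraries, at 27.1, 26.3, 23.2, 23.9 and 25.6 CPM in 82Q libraries and at 34.6, 32.1, 31.5, 38.5 and 40.1 CPM in 82Q_M120A libraries. Adamts4 (chr1:171250421-171260637) encodes a secreted protease that cuts proteoglycans. No group overlapped with another, with 82Q lowest and 82Q_M120A highest. Adamts4 rose 1.4-fold from 82Q to 82Q_M120A (0.49 ± 0.06, adjusted p = 2.91e-05) and 1.22-fold from WT to 82Q_M120A (0.29 ± 0.06, adjusted p = 0.00163, edgeR). Its fall in 82Q (-0.20 ± 0.06, adjusted p = 0.0338) was not called with library size as the only scaling (-0.15, adjusted p = 0.0918), nor without any of 82Q-3, 82Q-4, 82Q-5, WT-1, WT-2, WT-3 or WT-5.

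The WT libraries held 249, 279, 265, 244 and 279 CPM of Car2, the 82Q libraries 280.5, 265, 249, 246 and 271, and the 82Q_M120A libraries 235, 222, 220.4, 229 and 232. Car2 (chr3:14886273-14900770) encodes a carbonic anhydrase that choroid plexus expresses too, and was printed after its values were seen. All 82Q_M120A libraries lay below the 10 others. Car2 fell by 0.21 against WT (adjusted p = 0.00113) and by 0.20 against 82Q (adjusted p = 0.00305, edgeR) on the log2 scale. With the choroid plexus covariate it fell by 0.16 against WT (adjusted p = 0.0179).

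Ppp1r14a, an inhibitor of myosin phosphatase, rose 1.44-fold in 82Q_M120A against WT (0.53 ± 0.08, adjusted p = 8.1e-05) and 1.33-fold against 82Q (adjusted p = 0.00176, edgeR). The gap junction gene Gjb1 rose by 0.24 in 82Q and 0.28 in 82Q_M120A on the log2 scale, while for Gjc3, a connexin as well, the values of 0.05 and 0.11 did not pass the test. The receptor gene Gpr37 rose in 82Q_M120A (0.21 ± 0.07, adjusted p = 0.034), a call lost without any of 82Q_M120A-1, 82Q_M120A-3, 82Q_M120A-4, 82Q_M120A-5, WT-1, WT-3 or WT-4, and with the brainstem covariate (adjusted p = 0.196). With that covariate Gjb1 was called in neither 82Q (adjusted p = 0.202) nor 82Q_M120A (adjusted p = 0.069) against WT. In 82Q the call of Gjb1 was lost without any of 82Q-1, 82Q-2, 82Q-4, 82Q-5, WT-1, WT-3 or WT-4, and that of Pllp without 82Q-2, 82Q-4, 82Q-5, WT-1 or WT-3. Cryab, a small heat shock protein, Hapln2, a link protein of the nodes, and Ninj2 were not called, with 0.19 ± 0.07, 0.23 ± 0.09 and 0.35 ± 0.13 in 82Q against WT.

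**Figure D4:**
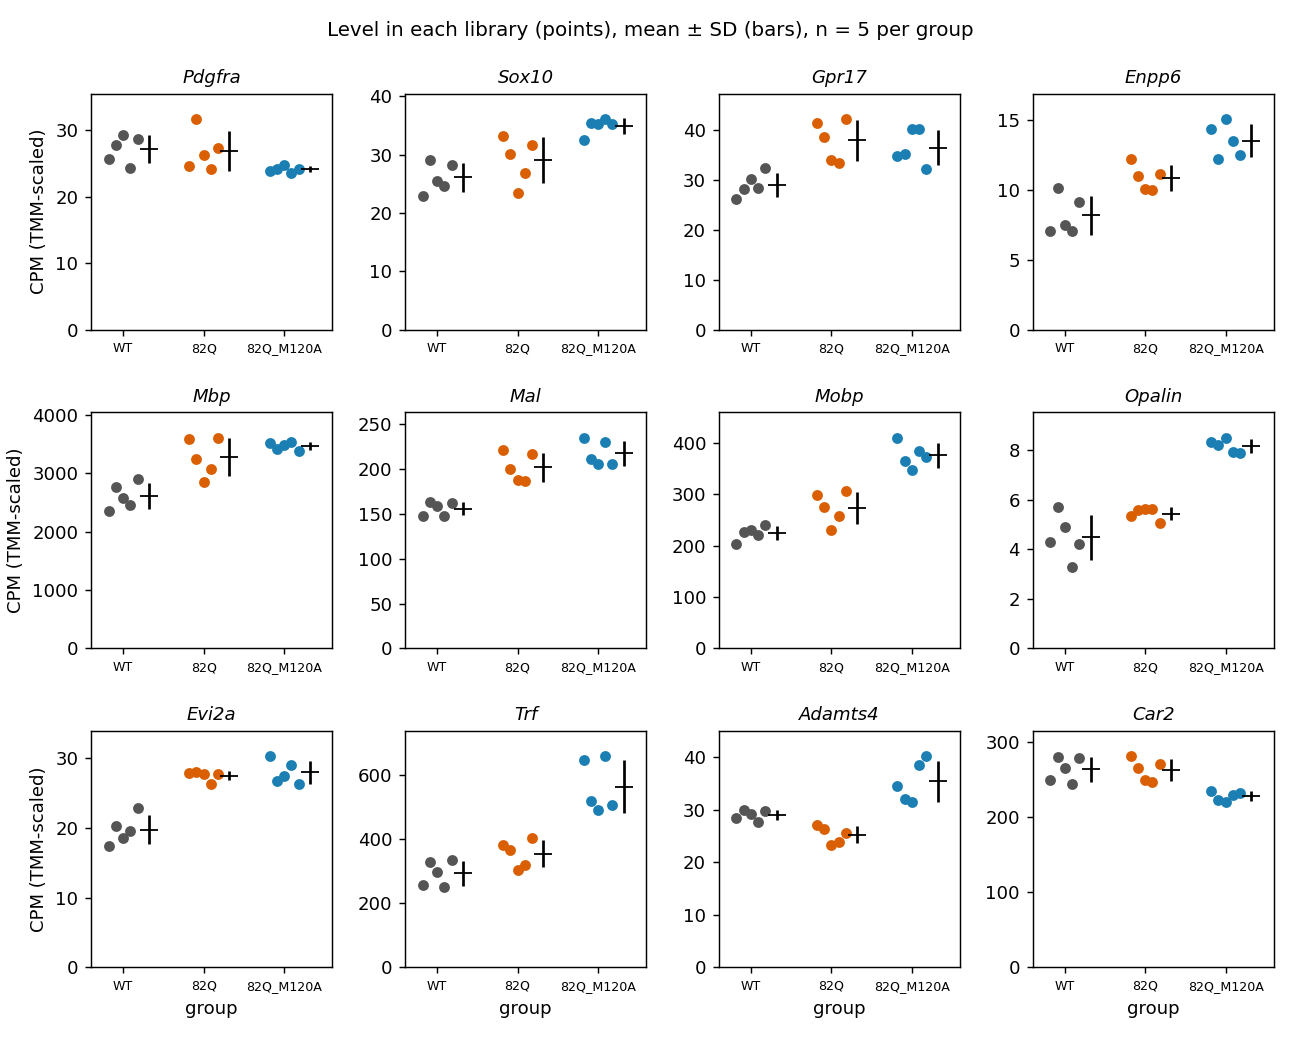
CPM (vertical, from 0) of 12 genes in each library (points, 5 per group), with the group mean ± SD as bars. Mobp, Opalin, Trf and Adamts4 are highest in all 82Q_M120A libraries, as is Enpp6 by a small margin, and Car2 is lowest there. Mal and Evi2a are above WT in both mutant groups.

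A second list of 42 oligodendrocyte genes gave 18 rises and 4 falls in 82Q against WT (median 0.17). In 82Q_M120A it gave 19 rises and 4 falls against WT (median 0.14), and 10 rises and 4 falls against 82Q (median 0.02). Of all tested genes 8.63%, 18.6% and 10.3% rose in these comparisons, and 10.1%, 17.8% and 8.63% fell. Lhfpl3 rose by 0.34 and 0.50 on the log2 scale in the mutant groups against WT, and Carns1, which makes carnosine, by 0.42 and 0.52. Tmem88b rose by 0.27 and 0.45, and Qdpr, which regenerates tetrahydrobiopterin, by 0.17 and 0.34. Itpr2, a calcium channel of newly formed oligodendrocytes, rose in 82Q (0.30 ± 0.05, adjusted p = 0.000645) and fell by 0.32 from 82Q to 82Q_M120A (adjusted p = 0.000423). Nkx2-2, a lineage transcription factor, rose by 0.66 from 82Q to 82Q_M120A (adjusted p = 1.49e-05, edgeR).

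Dbndd2 fell in 82Q by 0.44 on the log2 scale, from 220.2 ± 8.11 to 162 ± 4.31 CPM (adjusted p = 1.74e-09), and stood at 210.0 ± 3.55 CPM in 82Q_M120A. Matn4, a matrix protein, fell by 0.82 in 82Q_M120A against WT (adjusted p = 9.7e-07) and by 1.05 against 82Q (adjusted p = 1.78e-07, edgeR). Enpp2, which choroid plexus also makes, spread over 1198 ± 608 CPM in WT and was not called.

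Markers of neighbouring tissue were measured beside these genes. Of the 6 Schwann cell genes, Pmp2, a lipid-binding protein of peripheral myelin, had at most 0.0511 CPM in any library. Of 5 tested, Cdh19 rose in both mutant groups against WT, and Egr2 rose and Ngfr fell in 82Q_M120A. The list summed to 20.4 to 22.7 CPM over WT libraries, 19.3 to 25.4 over 82Q and 15.8 to 25.0 over 82Q_M120A libraries. Of the 9 genes of brainstem and cerebellar nuclei, Hoxb3, Slc6a5 and Spp1 were tested and the other 6 were too low. Slc6a5 and Spp1 rose in both mutant groups against WT. Hoxb3 went the other way without a call, by -0.37 in 82Q (adjusted p = 0.58) and -0.74 in 82Q_M120A (adjusted p = 0.176, edgeR). Hoxa5 and Hoxb8 were at 0 in all WT and 82Q_M120A libraries. The 9 summed to 23.5 to 32.2 CPM (WT), 32.4 to 47.4 (82Q) and 40.4 to 56.9 (82Q_M120A), carried by the glycine transporter gene Slc6a5 (13.7 ± 0.836, 16.7 ± 1.74 and 16.9 ± 1.803 CPM) and by Spp1 (13.8 ± 2.603, 24.6 ± 4.47 and 29.2 ± 6.61 CPM), which activated microglia express too. The 5 microglia markers summed to 104 to 114 CPM (WT), 162 to 172 (82Q) and 145 to 180.3 (82Q_M120A).

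The mean log2 CPM of the 3 tested brainstem genes had medians of 1.61 in WT, 2.0 in 82Q and 1.98 in 82Q_M120A. It thus partly followed group, and whether it measures brainstem tissue was not tested. With this mean as a covariate, 11 of the 39 genes rose in 82Q against WT in place of 18. In 82Q_M120A against WT, 23 rose in place of 28. Over all 16808 tested genes the rises went from 1451 to 960 and from 3129 to 2540 under the same covariate. The genes that lost the call of a rise were Olig2, Enpp6, Myrf, Cnp, Pllp, Aspa and Gjb1 in 82Q, and Cspg4, Nkx6-2, Fa2h, Gjb1 and Gpr37 in 82Q_M120A. Mbp kept its call in both, at 0.29 (adjusted p = 0.0166) and 0.38 (adjusted p = 0.0014, edgeR). With the choroid plexus covariate 22 genes rose in 82Q against WT, beside 1544 rises over all tested genes in place of 1451. The part of microglia and Schwann cell RNA in these results was not tested.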

How the data were processed

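Total RNA of dissected cerebella was made into TruSeq libraries, per the labels' protocols. The deposited table holds whole-number read counts per gene symbol. Tools listed in the submitters' processing notes are DESeq2 1.14.1, featureCounts, Subread, HISAT2 2.0.1, CASAVA 1.8 and R 3.3.3, with build mm10. The sources used here give no annotation, strand setting or rule for multiply aligned reads. Table columns name a group and no replicate number, so each was matched to its group only.

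Counts were fitted with edgeR 4.0.16 (R 4.3.3, limma 3.58.1): filterByExpr, TMM, robust glmQLFit with group as the only factor over 15 libraries, two-sided tests, adjusted p under 0.05. This kept 16808 genes and 99.99% of counts, with 12 residual degrees of freedom. SE was derived from the log2 fold change and F. Within groups, all 30 library pairs differed by more than counting noise (smallest chi-square per degree of freedom 7.08). In simulated counts for 82Q against WT (16808 genes), 93% of 100 genes changed 1.5-fold were called. Among the genes sorted into stages, the largest change in that comparison was 1.4-fold (Evi2a). The simulation therefore does not show how often changes of their size would be called. Alternatives used DESeq2 1.42.0, limma-voom, other scalings, filters, thresholds, covariates and left-out libraries.

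Members and lists were chosen with earlier results of these data known. Printed library by library are, per stage, the most abundant gene and the gene with the smallest adjusted p in each comparison. From the second list the text names up to 4 called genes with the smallest adjusted p in each comparison. Enpp2 was named after its values were seen. Coordinates and exon lengths are from GENCODE M21. The remaining marker lists (5 genes each) gave, in 82Q against WT, 1 rise for granule cells, 2 rises and 1 fall for astrocytes and Bergmann glia, 1 rise for endothelium and 0 calls for meninges. In 82Q_M120A against WT they gave 3 rises and 1 fall, 2 rises and 1 fall, 1 rise and 0 calls (edgeR). Of all tested genes 8.63% rose and 10.1% fell in 82Q against WT, and 18.6% rose and 17.8% fell in 82Q_M120A against WT.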

Additional observations from a re-analysis of the deposited data

Results flagged for a closer look

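In 117 groups of 5 libraries (39 genes in 3 groups), 5 held a library whose gap to its nearest neighbour, divided by the range of the group, passed Dixon's 95% limit. Chance gives about 1 in 20 groups. Sox10 was lowest in 82Q_M120A-1 at 32.5 CPM, with the next library at 35.2. Nkx6-2 was lowest in 82Q_M120A-2 at 12.8 CPM, with the next at 14.3. Tspan2 was lowest in WT-4 at 120.4 CPM, with the next at 129.9. Evi2a was lowest in 82Q-4 at 26.3 CPM, with the next at 27.7. Hapln2 was highest in WT-5 at 52.6 CPM, with the next at 42.7.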

How the results depend on the processing

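No paired analysis was possible because the columns of the table carry no replicate number. No fold change of the 39 genes that was called reversed under any setting run. Some rises in 82Q against WT were called only under other settings, and some lost their call. Olig2 lost it with limma-voom, without the low-count filter and with the choroid plexus covariate. With only the 2 groups compared, Olig2, Pllp and Gjb1 lost it. So did Gpr37 in 82Q_M120A against WT and Cspg4 in 82Q_M120A against 82Q. In 82Q against WT DESeq2 added Olig1, Mag, Opalin, Gpr37 and Hapln2, beside 1593 rises over all genes in place of 1451. There the choroid plexus covariate added Mag, Opalin, Trf, Gpr37 and Hapln2, beside 1544 rises over all genes. Library size only added Olig1, Mag, Opalin, Cryab, Gpr37, Hapln2 and Ninj2, beside 3063 rises over all genes in place of 1451. In 82Q_M120A against WT it added Tcf7l2, Gal3st1, Gjc3 and Ninj2, beside 4647 rises over all genes in place of 3129. Leaving out 1 library at a time gave 14 to 24 rises and 0 to 1 falls in 82Q against WT. Those of 82Q_M120A against WT numbered 25 to 30 rises and 1 to 2 falls, the second being Pdgfra without WT-1 or WT-4. Between the mutant groups it gave 7 to 12 rises and 1 to 2 falls. The 7 rises were found without 82Q-3 (Cspg4, Sox10, Enpp6 and Cnp lost), and Cryab was a second fall without 82Q_M120A-4. Over all tested genes these fits gave 1100 to 1342 rises and 1464 to 1661 falls in 82Q against WT. They gave 2683 to 3029 rises and 2725 to 2980 falls in 82Q_M120A against WT. For 82Q_M120A against 82Q they gave 1404 to 1765 rises and 1158 to 1445 falls. Tested against a 1.2-fold change, rises numbered 1, 13 and 4 in the 3 comparisons and falls 0, 0 and 0, beside 226, 923 and 392 rises and 463, 786 and 238 falls among all 16808 genes. The brainstem covariate left 11 rises for 82Q against WT, beside 960 over all tested genes. An adjusted p under 0.01 left 6 for 82Q_M120A against 82Q, beside 954 over all tested genes. The fall of Adamts4 in 82Q (1 gene) became 0 at adjusted p under 0.01, with either covariate and with library size only. Falls in 82Q_M120A against WT became 2 with DESeq2, RLE factors, the brainstem covariate or only the groups compared, where Pdgfra was added. Causes of these changes were not tested.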
